A study of Mus musculus with 10 samples.

Results

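The 48 genes described here are interferon-stimulated genes and guanylate binding protein genes of the mouse. They form a list of names known from the interferon response, drawn up with earlier results of these data known, and all 48 were found among the 22607 genes of the deposited tables. The RNA came from wild-type mice of the C57BL/6 strain, 8 weeks old in all groups, and the labels name no treatment or altered allele. Polyadenylated RNA was sequenced from antigen-presenting cells that carry MHC class II, in 2 libraries of colonic MHCII+ cells and 2 of splenic MHCII+ cells. Another 6 libraries held mononuclear phagocytes and dendritic cells of the colon, 2 each of CD11b+CD11c+ cells, CD11b+ cells and CD11c+ cells, named for the integrin chains CD11b and CD11c. The populations were read from abbreviations in the sample titles together with the series title. Whether a group had separate mice or pools behind its 2 libraries is not stated, so the p-values below measure only the spread between libraries, which may be technical.

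Interferons are secreted proteins that warn cells of infection. Type I interferons (alpha and beta) signal through the receptor chains IFNAR1 and IFNAR2 to transcription factors, STAT2 and IRF9 among them, that bind the interferon-stimulated response element, and interferon gamma signals through IFNGR1 and IFNGR2 to genes with a gamma-activated site. The genes switched on in this way detect viral nucleic acid, block steps of viral replication, or, in the case of the immunity-related GTPases and guanylate binding proteins, attack vacuoles and bacteria inside the cell. In the gut such genes are known to be kept at a low, steady activity by the microbiota.

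The libraries held 12806139 to 41769042 estimated counts. Levels within a comparison are given as CPM, counts relative to the scaled library size, and levels of different genes are compared in TPM, which allows for length. Of the sort genes, Itgam went with the group names, while Itgax was not absent from CD11b+ libraries. None of the 7 sort genes, Itgax among them, passed the test used below between CD11b+CD11c+ and CD11b+ cells. Itgam, which encodes CD11b, had 694 and 793 CPM in CD11b+CD11c+ libraries and 742 and 743 CPM in CD11b+ libraries, against 25.9 and 40.5 CPM in CD11c+ libraries. Itgax, which encodes CD11c, had 491 and 557 CPM in CD11b+ libraries, against 784 and 946 CPM in CD11c+ libraries. RNA of other cells was present: the 10 epithelial markers summed to 5908 and 5721 CPM in colonic MHCII+ libraries, against 23.3 and 27.4 CPM in splenic ones, and the 7 plasma cell markers to between 10170.0 and 39730.0 CPM in the colonic libraries. CD11c+ libraries 1 and 2 stood apart from each other, with summed levels of the 9 macrophage markers of 172 and 1156 CPM, of the 10 NK and innate lymphoid markers of 1321 and 458 CPM and of the 9 T cell markers of 733 and 288 CPM. For genes of the set, calls that changed without either of these libraries, and the called folds that moved most, are therefore given below. No such values are given for genes outside the set.

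The promoters of the genes were read from RefSeq on GRCm38.p6, as the 250 bases before and 50 bases after each start. An entry of the same symbol was found for 34 of the 48 genes, and they had 37 starts. The interferon-stimulated response element was searched as GAAANNGAAA and the gamma-activated site as TTCNNNGAA, on both strands. The first motif stood in the promoter of 24 of the 34 genes (70.6%), against 1079 of the 27025 genes of the table (3.99%). The second stood in 14 of the 34 (41.2%), against 9.55% of the genes of the table, and matches of both overlapped in 2 promoters. A match shows only that these letters are in the window. Isg15, Ifit3, Rsad2, Oas3, Igtp, Irgm2, Gbp3 and Gbp7 are shown because the comparisons below turn on them, as 50-base windows that lie before the start, with the response element in capitals (on the opposite strand it reads TTTC, any 2 bases, TTTC).
Isg15, chr4:156200865-156200914, minus strand: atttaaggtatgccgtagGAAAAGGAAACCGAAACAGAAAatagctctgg
Ifit3, chr19:34583355-34583404, plus strand: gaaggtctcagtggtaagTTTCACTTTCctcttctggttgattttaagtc
Rsad2, chr12:26456541-26456590, minus strand: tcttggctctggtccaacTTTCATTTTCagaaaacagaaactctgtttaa
Oas3, chr5:120777703-120777752, minus strand: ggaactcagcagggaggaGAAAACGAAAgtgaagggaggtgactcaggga
Igtp, chr11:58199504-58199553, plus strand: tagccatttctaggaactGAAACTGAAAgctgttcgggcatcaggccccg
Irgm2, chr11:58214895-58214944, plus strand: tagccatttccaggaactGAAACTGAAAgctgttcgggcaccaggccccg
Gbp3, chr3:142559981-142560030, plus strand: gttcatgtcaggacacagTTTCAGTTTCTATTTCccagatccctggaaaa
Gbp7, chr3:142530265-142530314, plus strand: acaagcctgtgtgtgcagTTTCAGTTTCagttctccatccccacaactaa
In Isg15, 3 overlapping matches run together into 1 stretch, and in Gbp3 there are 2. The windows of the neighbouring GTPase genes Igtp and Irgm2 differ at 2 of 50 bases. All 4 guanylate binding protein genes with an entry, Gbp2, Gbp3, Gbp5 and Gbp7, had a match, while no entry of the same symbol was found for Gbp4, Gbp6, Gbp8 and Gbp9. Genes with an entry and no match for the response element included Oasl1, Oasl2, Samhd1, Ifitm1, Ifitm6 and Ifi47.

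Across the 5 groups, the level of the gene set was highest in splenic MHCII+ cells and lowest in colonic CD11c+ cells. Mean TPM peaked in splenic MHCII+ cells for 38 of the 48 genes, in CD11b+ cells for 5, in CD11b+CD11c+ cells for 4 and in colonic MHCII+ cells for 1, Gbp5. It was lowest in CD11c+ cells for 32 and in colonic MHCII+ cells for 13. The IFITM genes made up more than any other role, so their sum and that of the other 44 genes are given apart. Without them, the summed level was 1810.0 and 2095 TPM in splenic MHCII+ libraries, 1301 and 1211 TPM in CD11b+ libraries, 1069 and 1140.0 TPM in CD11b+CD11c+ libraries, 796 and 751 TPM in colonic MHCII+ libraries and 629.9 and 653 TPM in CD11c+ libraries. No neighbours in this order overlapped. The 4 IFITM genes alone summed to 1904 and 1665 TPM in CD11b+CD11c+ libraries, 1781 and 1628 TPM in CD11b+ libraries, 1469 and 1652 TPM in splenic MHCII+ libraries, 1732 and 1171 TPM in colonic MHCII+ libraries and 1133 and 1157 TPM in CD11c+ libraries. Here neighbouring groups overlapped, apart from colonic MHCII+ and CD11c+ libraries. Ifitm2 and Ifitm3 ranked 1 and 2 among the 48 genes in every colonic group, Ifitm3 and Ifi27l2a in the spleen, and Ifi44 ranked 48 in all 5. These orders are a description, since the MHCII+ set and the subsets were sorted differently.

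**Figure D1:**
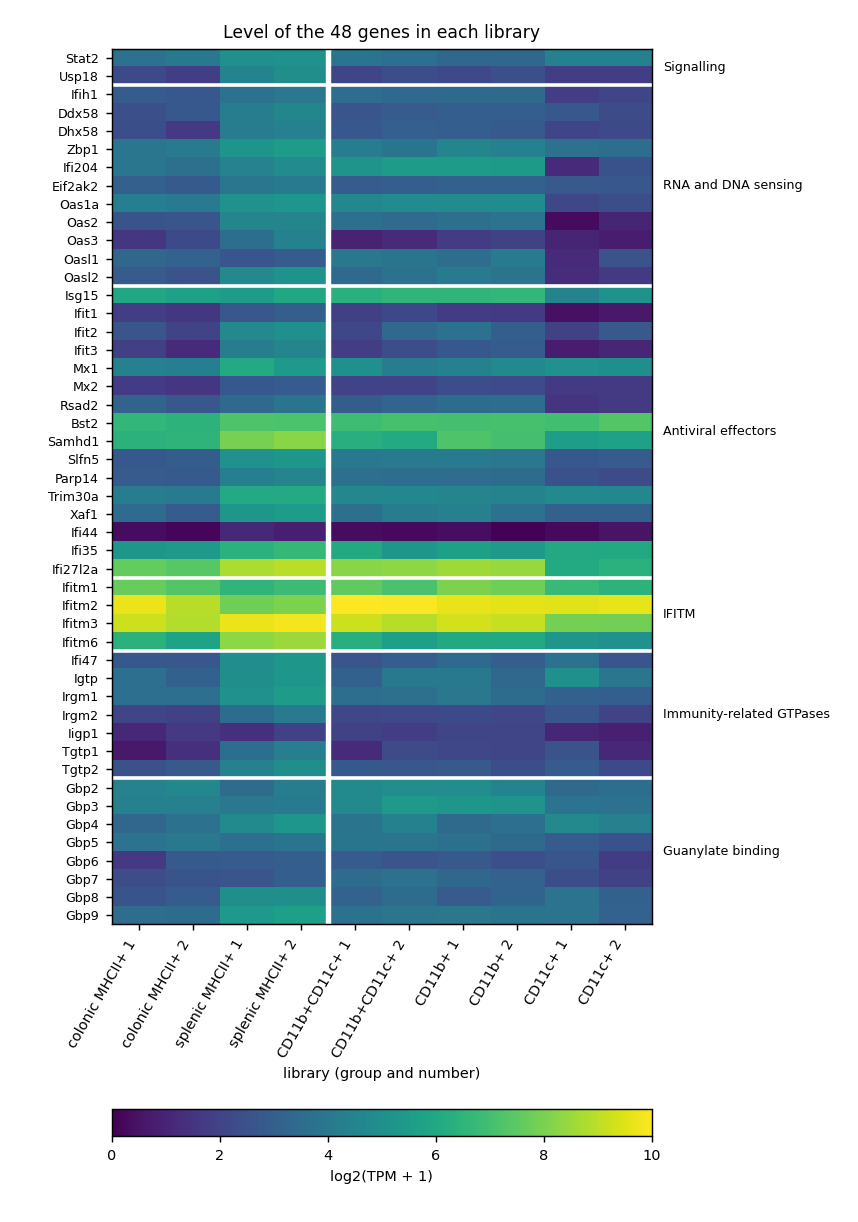
Level of the 48 genes (rows, grouped by role) in each of the 10 libraries (columns), as log2(TPM + 1) by colour. The splenic MHCII+ columns are the brightest for most rows, the IFITM block is bright throughout, and Oas2, Oasl1, Oasl2 and Ifi204 are dark in the CD11c+ columns.

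In colonic MHCII+ cells, most of the interferon-stimulated genes had lower levels than in splenic MHCII+ cells. By edgeR's quasi-likelihood F test, with p-values adjusted over 15076 genes by Benjamini-Hochberg and a threshold of 0.05, 37 of the 48 were lower, where 28.7% of all genes tested were. Another 5 were higher, where 31.6% of all genes were. The median log2 fold change was -1.44 for the 48 genes and 0.02 for all genes. The 5 higher genes were Oasl1, Ifitm1, Ifitm2, Gbp2 and Gbp3, and 6 passed in neither direction, namely Isg15, Rsad2, Iigp1, Gbp5, Gbp6 and Gbp7. In bulk samples such as these, fewer cells of a type and less RNA per cell cannot be told apart. Marker lists moved in the same comparison. Of the 8 neutrophil markers 7 were lower, with sums of 472 and 368 CPM in colonic libraries, against 6254 and 8895 CPM in splenic ones. Of the 6 monocyte markers 5 were lower, with sums of 675 and 669 CPM, against 1814 and 2178 CPM. The 7 B cell markers were all lower (99.1 and 97.7 CPM, against 1456 and 1535 CPM), and 7 of 9 macrophage markers were higher (2462 and 2225 CPM, against 1065 and 1185 CPM). Of the 7 plasmacytoid dendritic cell markers, cells known for interferon alpha, 6 were lower, Siglech among them with 9.196 and 6.42 CPM in colonic MHCII+ libraries, against 48.4 and 45.5 CPM in splenic MHCII+ libraries, and Bst2, a gene of the set, is another. The sum of that list went the other way (734 and 619 CPM in colonic libraries, against 260.3 and 245 CPM in splenic ones), and Klk1, the 1 higher marker, had 608 and 497 CPM in colonic MHCII+ libraries, against 9.79 and 9.06 CPM in splenic MHCII+ libraries. Of the T cell markers 7 of 9 were lower, and of the NK and innate lymphoid markers 5 of 10 were higher and 2 lower. Of the 8 markers of type 1 conventional dendritic cells 7 were lower (1142 and 1351 CPM, against 3090.0 and 2537 CPM), and all 10 epithelial and 7 plasma cell markers were higher. None of the neutrophil, monocyte, B cell, macrophage or dendritic cell markers was at 0 in any of the 4 libraries, and the part of these cells in the result was not tested.

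**Figure D2:**
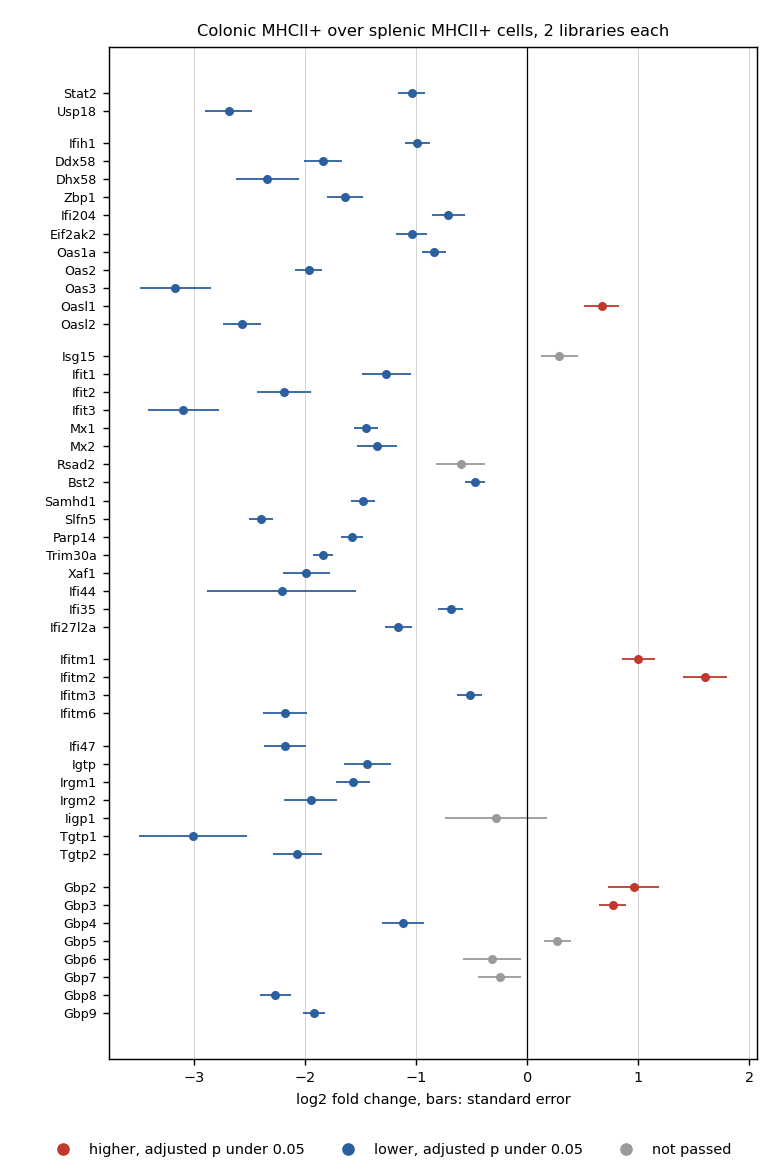
Log2 fold change of each gene in colonic MHCII+ over splenic MHCII+ cells (horizontal axis, bars are standard errors, 2 libraries per group), ordered by role. The sensor, effector and immunity-related GTPase genes lie to the left of 0 apart from Oasl1 and Isg15, with Oas3 at -3.17, while Ifitm1, Ifitm2, Gbp2 and Gbp3 lie to the right.

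Both signalling genes were lower in the colon. Stat2, a transcription factor of the type I response, had 68.8 and 83 CPM in colonic MHCII+ libraries, against 156 and 155 CPM in splenic MHCII+ libraries (log2 fold change -1.04 ± 0.12, adjusted p = 0.000397). Usp18, the protease that strips ISG15 from proteins and damps the type I receptor, had 6.96 and 5.02 CPM in colonic MHCII+ libraries, against 35.1 and 42.9 CPM in splenic MHCII+ libraries, a level 6.43-fold lower (log2 fold change -2.69 ± 0.21, adjusted p = 9.08e-05). In both genes the colonic and splenic libraries did not overlap.

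Of the 11 sensor genes 10 were lower and 1 was higher, with a median log2 fold change of -1.64. Oas3, one of the synthetases that make 2-5A, the messenger that activates RNase L, had 5.397 and 10.4 CPM in colonic MHCII+ libraries, against 58.1 and 80.9 CPM in splenic MHCII+ libraries, and was 9.01-fold lower (log2 fold change -3.17 ± 0.32, adjusted p = 0.0002701). The related Oasl2 had 12.2 and 11.1 CPM in colonic MHCII+ libraries, against 59.5 and 79.1 CPM in splenic MHCII+ libraries (log2 fold change -2.57 ± 0.17, adjusted p = 4.53e-05). Oas1a, among the more abundant sensor genes, had 35.2 and 31.1 CPM in colonic MHCII+ libraries, against 58.5 and 60.7 CPM in splenic MHCII+ libraries (log2 fold change -0.84 ± 0.11, adjusted p = 0.000884). Zbp1, a sensor of Z-form nucleic acid that can start necroptosis, had 14.3 and 16.9 CPM in colonic MHCII+ libraries, against 43.95 and 53 CPM in splenic MHCII+ libraries (log2 fold change -1.64 ± 0.16, adjusted p = 0.000208). The helicase genes for RIG-I (Ddx58), MDA5 (Ifih1) and LGP2 (Dhx58), which detect cytosolic RNA, were lower as well, at log2 fold changes of -1.84, -0.99 and -2.34. So were Eif2ak2, which encodes the translation-blocking kinase PKR, at -1.04, Oas2 at -1.97 and Ifi204, a DNA-binding protein of the HIN family, at -0.71. For Dhx58 the log2 fold change was -2.97 without colonic MHCII+ library 1. The exception was Oasl1, known in mice as an inhibitor of Irf7 translation, with 24.6 and 21.8 CPM in colonic MHCII+ libraries, against 13.7 and 15.5 CPM in splenic MHCII+ libraries (log2 fold change 0.67 ± 0.16, adjusted p = 0.01103). Its call was lost without splenic MHCII+ library 1 (log2 fold change 0.57, adjusted p = 0.0778), with limma on log2(TPM + 1) (0.45, 0.099) and with all 10 libraries in the fit (0.66, 0.23). The last of these also ended the call of Ifi204 (-0.73, 0.158).

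Among the 16 antiviral effector genes 14 were lower and none was higher by the edgeR test or at an unadjusted p under 0.05, and the median log2 fold change was -1.46. Ifit3, one of the tetratricopeptide proteins that bind viral RNA, had 5.73 and 2.804 CPM in colonic MHCII+ libraries, against 34.2 and 41.1 CPM in splenic MHCII+ libraries, 8.57-fold lower (log2 fold change -3.10 ± 0.32, adjusted p = 0.000286). Its colonic libraries differed by 2.04-fold, and without colonic library 1 the log2 fold change was -3.79. Slfn5, a Schlafen family gene, had 29.5 and 31.8 CPM in colonic MHCII+ libraries, against 153 and 169.6 CPM in splenic MHCII+ libraries (log2 fold change -2.40 ± 0.11, adjusted p = 1.01e-05). These genes had clearly separate groups. The most abundant effectors in TPM were Ifi27l2a, a mitochondrial interferon-inducible protein, with 36.6 and 36.3 CPM in colonic MHCII+ libraries, against 74.6 and 88.5 CPM in splenic MHCII+ libraries (log2 fold change -1.16 ± 0.12, adjusted p = 0.000256), and Samhd1. Samhd1, whose product depletes the nucleotides that retroviruses need, had 299.6 and 316 CPM in colonic MHCII+ libraries, against 808 and 910.3 CPM in splenic MHCII+ libraries (log2 fold change -1.48 ± 0.11, adjusted p = 6.42e-05). The other lower effectors were Ifit1, Ifit2, Mx1, Mx2, Bst2, Parp14, Trim30a, Xaf1, Ifi35 and Ifi44, at log2 fold changes of -2.21 to -0.47. Ifi44 rested on few reads and lost its call without colonic library 2 (adjusted p = 0.0735), splenic library 1 (0.2) or splenic library 2 (0.0584), and its log2 fold change was -3.08 without colonic library 1. The Mx1 gene of C57BL/6 mice is known to carry a deletion that inactivates the protein, and the annotation lists Mx2 as a polymorphic pseudogene, so their levels are those of transcripts. Isg15, the ubiquitin-like modifier, did not pass, with 33.6 and 31.9 CPM in colonic MHCII+ libraries, against 22.7 and 31.1 CPM in splenic MHCII+ libraries (log2 fold change 0.29 ± 0.17, adjusted p = 0.197), and its groups did not overlap. Rsad2, which encodes viperin, had 13.7 and 10.2 CPM in colonic MHCII+ libraries, against 16.1 and 20.5 CPM in splenic MHCII+ libraries and missed the threshold narrowly (log2 fold change -0.60 ± 0.22, adjusted p = 0.05001). It passed without colonic library 1 (log2 fold change -0.88, adjusted p = 0.0155) and without splenic library 1 (-0.78, 0.0434).

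The 4 IFITM genes, whose membrane proteins hinder the fusion of viruses with cells and which lie close together on chromosome 7, split. Ifitm2 had 374 and 250.2 CPM in colonic MHCII+ libraries, against 95.9 and 110.2 CPM in splenic MHCII+ libraries (log2 fold change 1.60 ± 0.20, adjusted p = 0.000624), and Ifitm1 had 51.3 and 46.5 CPM in colonic MHCII+ libraries, against 21.6 and 27.6 CPM in splenic MHCII+ libraries (log2 fold change 1.00 ± 0.15, adjusted p = 0.00164). Both were higher in the colon. Ifitm3 had 249.5 and 216 CPM in colonic MHCII+ libraries, against 319 and 349 CPM in splenic MHCII+ libraries (log2 fold change -0.52 ± 0.11, adjusted p = 0.00705), and Ifitm6, a family member of blood-forming cells, had 26.4 and 18.1 CPM in colonic MHCII+ libraries, against 91.2 and 112 CPM in splenic MHCII+ libraries, 4.52-fold lower (log2 fold change -2.18 ± 0.20, adjusted p = 0.000164). The 2 genes of highest TPM had opposite differences. Of the 31-base words in the coding sequence of Ifitm2, 56.8% also stand in other genes, mainly Gm45717, so its level is less certain, while Ifitm6 shares none.

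Of the 7 immunity-related GTPase genes, 6 were lower in the colon and Iigp1 did not pass, with a median log2 fold change of -1.95. Irgm1, a regulator of the family, had 24.9 and 25.1 CPM in colonic MHCII+ libraries, against 64.04 and 83.98 CPM in splenic MHCII+ libraries (log2 fold change -1.57 ± 0.15, adjusted p = 0.000212), and Igtp, another regulator also called Irgm3, had 13.8 and 17.2 CPM in colonic MHCII+ libraries, against 34.7 and 48.9 CPM in splenic MHCII+ libraries (log2 fold change -1.44 ± 0.21, adjusted p = 0.00134). Ifi47 had 12.5 and 12.4 CPM in colonic MHCII+ libraries, against 46.7 and 66.4 CPM in splenic MHCII+ libraries (log2 fold change -2.18 ± 0.19, adjusted p = 0.0001396). In these genes every splenic library exceeded both colonic ones. Tgtp1, an effector that coats parasite vacuoles, had 1.33 and 3.39 CPM in colonic MHCII+ libraries, against 13.01 and 23.6 CPM in splenic MHCII+ libraries (log2 fold change -3.01 ± 0.49, adjusted p = 0.00219), and the log2 fold change was -3.78 without colonic library 2. Its near-copy Tgtp2 had 9.83 and 12.8 CPM in colonic MHCII+ libraries, against 39.3 and 55.4 CPM in splenic MHCII+ libraries (log2 fold change -2.07 ± 0.22, adjusted p = 0.000334), and the pair share 91.9% of the coding words of Tgtp1, so the division of reads between them is uncertain. Irgm2 was lower at -1.95. Iigp1, the effector Irga6, had 2.53 and 4.67 CPM in colonic MHCII+ libraries, against 3.12 and 5.56 CPM in splenic MHCII+ libraries (log2 fold change -0.28 ± 0.46, adjusted p = 0.622), with overlapping groups.

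The guanylate binding proteins, dynamin-like GTPases that assemble on pathogens and their vacuoles, lie in a cluster on chromosome 3 and another on chromosome 5. This grouping was made after the values had been seen, and the difference between the clusters was not tested. On chromosome 5, Gbp9 had 37.8 and 36.2 CPM in colonic MHCII+ libraries, against 134 and 146 CPM in splenic MHCII+ libraries (log2 fold change -1.92 ± 0.10, adjusted p = 1.62e-05), Gbp8 had 14.5 and 18.1 CPM in colonic MHCII+ libraries, against 80.3 and 75.7 CPM in splenic MHCII+ libraries (log2 fold change -2.27 ± 0.14, adjusted p = 3.19e-05) and Gbp4 had 24.4 and 35.9 CPM in colonic MHCII+ libraries, against 60.5 and 69.98 CPM in splenic MHCII+ libraries (log2 fold change -1.12 ± 0.19, adjusted p = 0.00279). These 3 were lower and Gbp6 did not pass (log2 fold change -0.32 ± 0.26, adjusted p = 0.331), with a median log2 fold change of -1.52 for the 4 genes. On chromosome 3, Gbp2 had 62.7 and 80.5 CPM in colonic MHCII+ libraries, against 28.6 and 45.2 CPM in splenic MHCII+ libraries (log2 fold change 0.96 ± 0.23, adjusted p = 0.0115), and Gbp3 had 54.9 and 63.96 CPM in colonic MHCII+ libraries, against 33.2 and 36.3 CPM in splenic MHCII+ libraries (log2 fold change 0.77 ± 0.12, adjusted p = 0.001904). Both were higher in the colon, and the median of the 4 genes was 0.52. Gbp5 had 48.9 and 56.4 CPM in colonic MHCII+ libraries, against 41.1 and 46.02 CPM in splenic MHCII+ libraries (log2 fold change 0.27 ± 0.12, adjusted p = 0.0942) and Gbp7 had 14.7 and 17.99 CPM in colonic MHCII+ libraries, against 17.2 and 21.5 CPM in splenic MHCII+ libraries (log2 fold change -0.25 ± 0.19, adjusted p = 0.299), and neither passed. The chromosome 5 genes share many coding words with relatives, from 33.2% in Gbp9 to 96.7% in Gbp6, whereas Gbp7, with the most of the chromosome 3 genes, shares 10.97%. On the log2(TPM + 1) scale the calls of Gbp2 (0.69, adjusted p = 0.106 with limma) and Gbp3 (0.30, 0.126) were lost, and Gbp6 passed as lower without colonic library 2 (-0.68, 0.04).

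**Figure D3:**
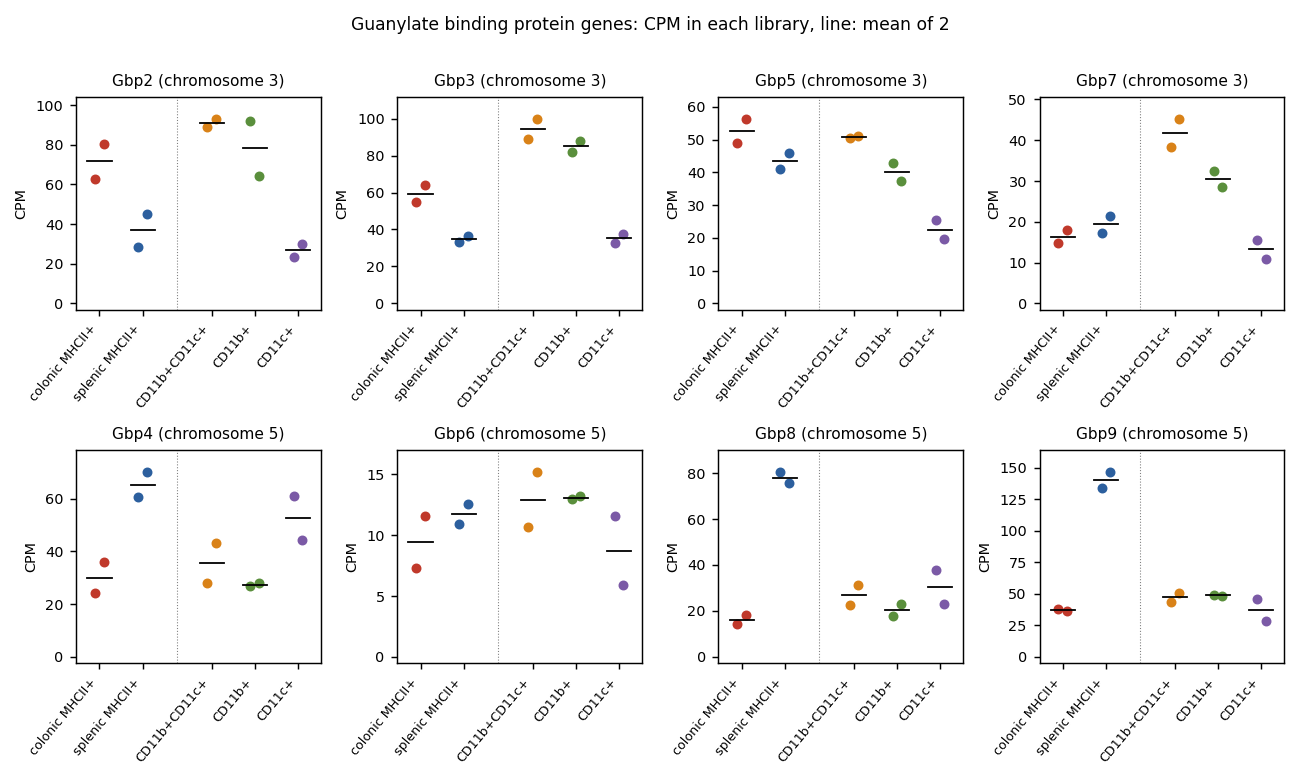
CPM of the 8 guanylate binding protein genes in each library (points), with the mean of 2 libraries per group as a line, genes of chromosome 3 above and of chromosome 5 below. MHCII+ and subset libraries, left and right of the dotted line, were scaled separately. Gbp2 and Gbp3 are higher in colonic than in splenic MHCII+ libraries and Gbp4, Gbp8 and Gbp9 lower, and the chromosome 3 genes are higher in both CD11b-bearing subsets than in CD11c+ cells.

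Within the colon, most of the genes had higher levels in the 2 CD11b-bearing subsets than in CD11c+ cells. Over CD11c+ cells, 28 of the 47 genes tested were higher in CD11b+CD11c+ cells, where 20.4% of all 14225 genes tested were, and 3 were lower, where 22.5% of all genes were. In CD11b+ cells 30 were higher, where 27.0% of all genes were, and 5 were lower, where 25.0% of all genes were. The median log2 fold changes were 0.73 and 0.83, with medians of -0.09 and -0.02 over all genes. Ifi44 fell under the count filter. Both comparisons use the same CD11c+ libraries, so they are set side by side and are not independent. Macrophage markers moved the same way: 9 of 9 were higher in each comparison, with sums of 9003 and 11730.0 CPM in CD11b+CD11c+ libraries and 7727 and 8721 CPM in CD11b+ libraries, against 172 and 1156 CPM in CD11c+ libraries, and none at 0. All 8 neutrophil markers were higher in CD11b+ cells and 5 in CD11b+CD11c+ cells, with sums of 128 and 161 CPM in CD11b+CD11c+ libraries and 619 and 563 CPM in CD11b+ libraries, against 3.37 and 14.8 CPM in CD11c+ libraries, where S100a8, Camp and Ngp were at 0. Of the 10 stromal and endothelial markers 5 were lower in CD11b+CD11c+ cells and 8 were higher in CD11b+ cells, with sums of 866 and 709.5 CPM in CD11b+CD11c+ libraries and 4358 and 3907 CPM in CD11b+ libraries, against 1269 and 1453 CPM in CD11c+ libraries. Most markers of T cells, NK cells and type 1 conventional dendritic cells were lower in both comparisons. Of the 9 T cell markers 8 were lower in each comparison, with sums of 122 and 155 CPM in CD11b+CD11c+ libraries and 112 and 145 CPM in CD11b+ libraries, against 733 and 288 CPM in CD11c+ libraries. Of the 10 NK and innate lymphoid markers 8 were lower and 1 higher in each, with sums of 245 and 197 CPM in CD11b+CD11c+ libraries and 125 and 138 CPM in CD11b+ libraries, against 1321 and 458 CPM in CD11c+ libraries. Of the 8 type 1 dendritic cell markers all were lower in CD11b+ cells and 7 of 8 in CD11b+CD11c+ cells, with sums of 1405 and 914 CPM in CD11b+CD11c+ libraries and 407 and 432 CPM in CD11b+ libraries, against 4015 and 4355 CPM in CD11c+ libraries. Among monocyte markers 4 of 6 were higher in each comparison, with 2 lower in CD11b+CD11c+ cells and 1 lower in CD11b+ cells. Eosinophil markers, 5 of them tested, had 3 higher and 1 lower in CD11b+CD11c+ cells, and 4 higher and none lower in CD11b+ cells. Epithelial markers had 1 of 10 higher in CD11b+CD11c+ cells and 6 of 10 in CD11b+ cells, with none lower. Of the 7 plasma cell markers 5 were lower and 1 higher in each comparison. Their sums were 12690.0 and 10170.0 CPM in CD11b+CD11c+ libraries and 16360.0 and 13300.0 CPM in CD11b+ libraries. The CD11c+ libraries had more, at 29830.0 and 39730.0 CPM. The part of these cells in the results was not tested.

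**Figure D4:**
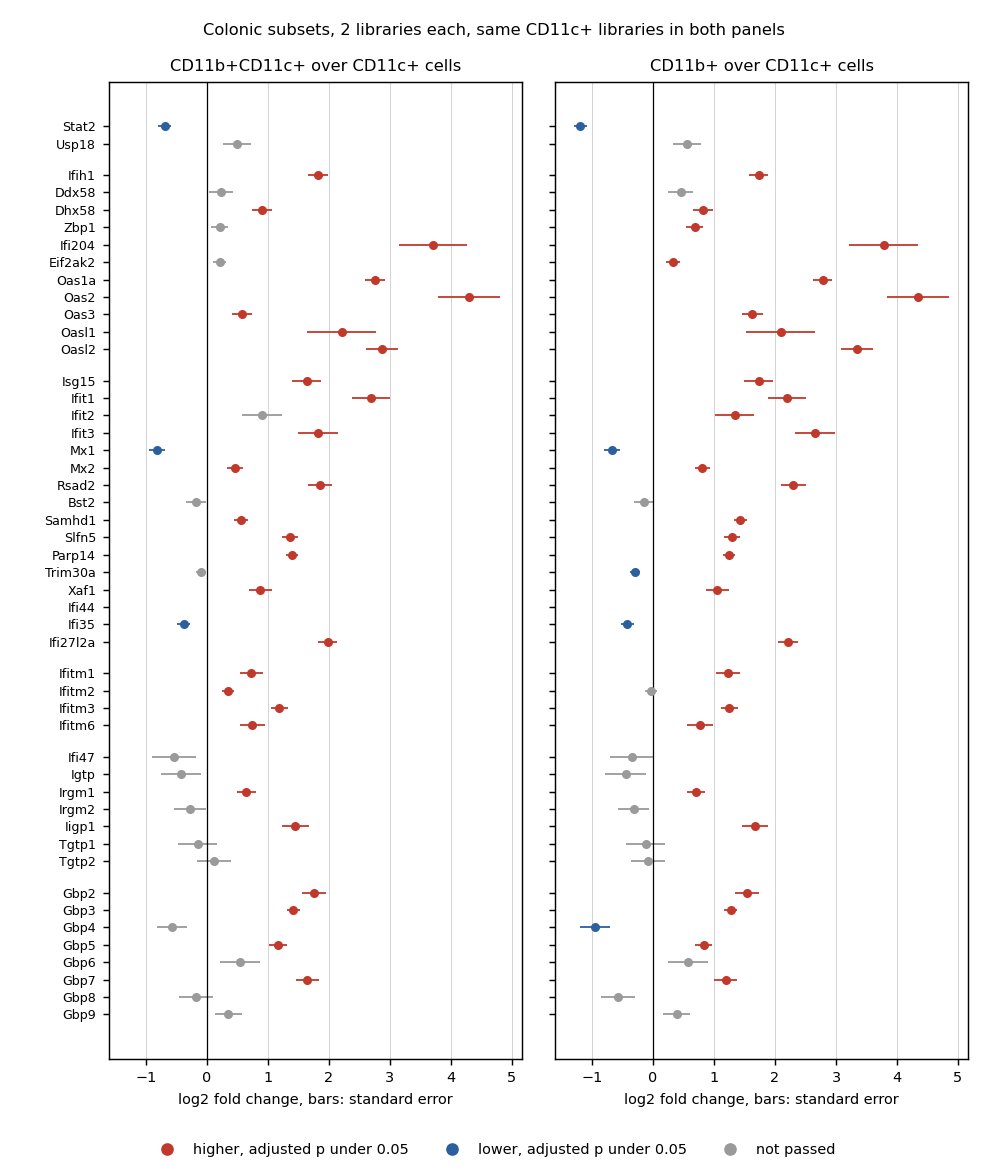
Log2 fold change of each gene over CD11c+ cells (bars are standard errors, 2 libraries per group), for CD11b+CD11c+ cells on the left and CD11b+ cells on the right, both against the same CD11c+ libraries. The sensor genes reach furthest to the right, with Oas2 at 4.30 and 4.35. Among the immunity-related GTPase genes, Irgm1 and Iigp1 lie to the right, and Ifi47, Igtp and Irgm2 lie to the left without passing. Stat2, Mx1, Ifi35 and Gbp4 also lie to the left.

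The sensor genes had the largest median differences of the 6 roles: 8 of 11 were higher in CD11b+CD11c+ cells and 10 of 11 in CD11b+ cells, none was lower in either by the edgeR test or at an unadjusted p under 0.05, and the median log2 fold changes were 1.82 and 1.73. Oas2 had 45.4 and 42.9 CPM in CD11b+CD11c+ libraries and 46.2 and 45.6 CPM in CD11b+ libraries, against 0.948 and 3.86 CPM in CD11c+ libraries. Over CD11c+ cells, Oas2 had a log2 fold change of 4.30 ± 0.51 in CD11b+CD11c+ cells (adjusted p = 0.00171) and of 4.35 ± 0.51 in CD11b+ cells (adjusted p = 0.00134). Ifi204 had 124 and 159 CPM in CD11b+CD11c+ libraries and 148 and 149.7 CPM in CD11b+ libraries, against 4.78 and 17.3 CPM in CD11c+ libraries. Over CD11c+ cells, Ifi204 had a log2 fold change of 3.71 ± 0.55 in CD11b+CD11c+ cells (adjusted p = 0.003703) and of 3.78 ± 0.56 in CD11b+ cells (adjusted p = 0.00281). Both genes were near the bottom of the range in CD11c+ library 1 and higher in CD11c+ library 2, the one with more macrophage RNA. Without CD11c+ library 1 the log2 fold changes of Oas2 were 3.51 and 3.56, and without library 2 they were 5.52 and 5.58. Those of Ifi204 were 3.02 and 3.09 without library 1, and 4.88 and 4.95 without library 2. Ifi204 shares 47.65% of its coding words with other genes, chiefly Ifi211, so its level is less certain. Oasl1 had 41.9 and 39.4 CPM in CD11b+CD11c+ libraries and 29.99 and 44.6 CPM in CD11b+ libraries, against 3.75 and 14.3 CPM in CD11c+ libraries (log2 fold change over CD11c+ 2.21 ± 0.56 in CD11b+CD11c+ cells, adjusted p = 0.0216, and 2.09 ± 0.56 in CD11b+ cells, adjusted p = 0.0218). The same CD11c+ libraries moved Oasl1. Its log2 fold changes in CD11b+CD11c+ and CD11b+ cells were 1.5 and 1.38 without library 1, and 3.43 and 3.30 without library 2. Oasl2 had 22.9 and 25.1 CPM in CD11b+CD11c+ libraries and 34.1 and 32.4 CPM in CD11b+ libraries, against 2.39 and 4.34 CPM in CD11c+ libraries. Over CD11c+ cells, Oasl2 had a log2 fold change of 2.87 ± 0.26 in CD11b+CD11c+ cells (adjusted p = 0.000857) and of 3.34 ± 0.26 in CD11b+ cells (adjusted p = 0.000432). Oas1a had 46.6 and 54.4 CPM in CD11b+CD11c+ libraries and 49.7 and 53 CPM in CD11b+ libraries, against 6.48 and 8.57 CPM in CD11c+ libraries. Over CD11c+ cells, Oas1a had a log2 fold change of 2.76 ± 0.16 in CD11b+CD11c+ cells (adjusted p = 0.000316) and of 2.78 ± 0.16 in CD11b+ cells (adjusted p = 0.000234). The gene shares 60.7% of its coding words with other genes, chiefly Oas1g. In Oas1a the CD11c+ libraries lay close together and far below the others. Ifih1 was higher at 1.82 and 1.73 and Dhx58 at 0.91 and 0.82. Zbp1 had 16.9 and 14.5 CPM in CD11b+CD11c+ libraries and 21.99 and 21.6 CPM in CD11b+ libraries, against 14.6 and 12.5 CPM in CD11c+ libraries. Over CD11c+ cells, Zbp1 had a log2 fold change of 0.21 ± 0.14 in CD11b+CD11c+ cells (adjusted p = 0.2598) and of 0.68 ± 0.14 in CD11b+ cells (adjusted p = 0.00841). It passed in CD11b+ cells, whereas in the other subset it did not, and between these 2 subsets it did not pass either (log2 fold change -0.47 ± 0.14, adjusted p = 0.0938). Ddx58 passed in neither comparison, apart from CD11b+ cells without CD11c+ library 1 (0.74, adjusted p = 0.0164). Oas3 was higher at 0.58 and 1.63 and Eif2ak2 in CD11b+ cells at 0.33. Leaving out single libraries ended some of these calls: in CD11b+CD11c+ cells those of Oas3 (adjusted p = 0.0567 to 0.124 without any 1 of the 6 libraries) and Oasl1 (adjusted p = 0.0745 without CD11b+CD11c+ library 1 and 0.0732 without CD11b+CD11c+ library 2), and in CD11b+ cells those of Oasl1 (adjusted p = 0.0544 without CD11b+ library 1 and 0.107 without CD11b+ library 2), Dhx58 (adjusted p = 0.0564 without CD11b+ library 1), Zbp1 (adjusted p = 0.0539 without CD11b+ library 1 and 0.0576 without CD11b+ library 2) and Eif2ak2 (adjusted p = 0.0588 to 0.24 without any 1 of the 6 libraries). The signalling gene Stat2 was lower in both, with 75.5 and 63.6 CPM in CD11b+CD11c+ libraries and 47.7 and 50.3 CPM in CD11b+ libraries, against 110.2 and 114 CPM in CD11c+ libraries (log2 fold change over CD11c+ -0.69 ± 0.11 in CD11b+CD11c+ cells, adjusted p = 0.00433, and -1.19 ± 0.11 in CD11b+ cells, adjusted p = 0.0006403), and Usp18 passed in neither.

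Of the 15 antiviral effector genes tested, 10 were higher and 2 lower in CD11b+CD11c+ cells, and 11 higher and 3 lower in CD11b+ cells, with median log2 fold changes of 0.90 and 1.29. Ifi27l2a, the most abundant in TPM, had 59.3 and 60.6 CPM in CD11b+CD11c+ libraries and 74.8 and 65.7 CPM in CD11b+ libraries, against 13.1 and 17.3 CPM in CD11c+ libraries. Over CD11c+ cells, Ifi27l2a had a log2 fold change of 1.98 ± 0.15 in CD11b+CD11c+ cells (adjusted p = 0.000621) and of 2.21 ± 0.16 in CD11b+ cells (adjusted p = 0.000342). Samhd1 had 278 and 256 CPM in CD11b+CD11c+ libraries and 506 and 467 CPM in CD11b+ libraries, against 168 and 194 CPM in CD11c+ libraries. Over CD11c+ cells, Samhd1 had a log2 fold change of 0.56 ± 0.11 in CD11b+CD11c+ cells (adjusted p = 0.00956) and of 1.43 ± 0.11 in CD11b+ cells (adjusted p = 0.0004401). In both genes the CD11c+ libraries lay below all others without overlap. Ifit1 had 6.78 and 8.87 CPM in CD11b+CD11c+ libraries and 5.61 and 5.48 CPM in CD11b+ libraries, against 0.9099 and 1.57 CPM in CD11c+ libraries. Over CD11c+ cells, Ifit1 had a log2 fold change of 2.69 ± 0.31 in CD11b+CD11c+ cells (adjusted p = 0.00165) and of 2.20 ± 0.31 in CD11b+ cells (adjusted p = 0.00258). Ifit3 had 5.36 and 8.79 CPM in CD11b+CD11c+ libraries and 11.5 and 13.5 CPM in CD11b+ libraries, against 1.59 and 2.47 CPM in CD11c+ libraries. Over CD11c+ cells, Ifit3 had a log2 fold change of 1.82 ± 0.33 in CD11b+CD11c+ cells (adjusted p = 0.00733) and of 2.65 ± 0.33 in CD11b+ cells (adjusted p = 0.00163). The gene shares 78.1% of its coding words with Ifit3b. Rsad2 had 12 and 16.4 CPM in CD11b+CD11c+ libraries and 18.8 and 19.6 CPM in CD11b+ libraries, against 3.56 and 4.28 CPM in CD11c+ libraries. Over CD11c+ cells, Rsad2 had a log2 fold change of 1.86 ± 0.20 in CD11b+CD11c+ cells (adjusted p = 0.001404) and of 2.30 ± 0.20 in CD11b+ cells (adjusted p = 0.000578). In CD11c+ cells these 3 genes had under 5 CPM in each library. Isg15 had 47.4 and 54.3 CPM in CD11b+CD11c+ libraries and 52.4 and 55.8 CPM in CD11b+ libraries, against 12.2 and 20.6 CPM in CD11c+ libraries. Over CD11c+ cells, Isg15 had a log2 fold change of 1.64 ± 0.24 in CD11b+CD11c+ cells (adjusted p = 0.00356) and of 1.73 ± 0.24 in CD11b+ cells (adjusted p = 0.00237). Mx2, Slfn5, Parp14 and Xaf1 were also higher in both comparisons, and Ifit2 passed in CD11b+ cells (1.34), though not when single libraries were left out (adjusted p = 0.103 without CD11b+ library 2 and 0.0583 without CD11c+ library 1), and in CD11b+CD11c+ cells without CD11c+ library 2 (1.25, adjusted p = 0.0307). In CD11b+CD11c+ cells the calls of Samhd1 (adjusted p = 0.0503 without CD11b+CD11c+ library 1), Xaf1 (adjusted p = 0.0602 without CD11b+CD11c+ library 1 and 0.0562 without CD11c+ library 1) and Mx2 (adjusted p = 0.0545 to 0.103 without any 1 of the 6 libraries) were lost in the same way. Bst2, among the most abundant of the role, passed in neither (-0.18 ± 0.16 and -0.15 ± 0.16).

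A few effector genes went the other way. Mx1 had 19.5 and 17.1 CPM in CD11b+CD11c+ libraries and 19.7 and 20.3 CPM in CD11b+ libraries, against 29.5 and 34.6 CPM in CD11c+ libraries. Over CD11c+ cells, Mx1 had a log2 fold change of -0.81 ± 0.13 in CD11b+CD11c+ cells (adjusted p = 0.004301) and of -0.68 ± 0.13 in CD11b+ cells (adjusted p = 0.00605). Ifi35, a leucine zipper protein that pairs with Nmi, had 45.97 and 43.5 CPM in CD11b+CD11c+ libraries and 41.7 and 45.6 CPM in CD11b+ libraries, against 60.3 and 56.3 CPM in CD11c+ libraries. Over CD11c+ cells, Ifi35 had a log2 fold change of -0.38 ± 0.10 in CD11b+CD11c+ cells (adjusted p = 0.0222) and of -0.42 ± 0.10 in CD11b+ cells (adjusted p = 0.0136). Trim30a, a TRIM family regulator, had 65.2 and 66.7 CPM in CD11b+CD11c+ libraries and 57.4 and 57.6 CPM in CD11b+ libraries, against 73.02 and 68.7 CPM in CD11c+ libraries and passed in CD11b+ cells. Over CD11c+ cells, Trim30a had a log2 fold change of -0.10 ± 0.08 in CD11b+CD11c+ cells (adjusted p = 0.348) and of -0.30 ± 0.08 in CD11b+ cells (adjusted p = 0.0256). The CD11c+ libraries were the highest for each of these genes. The calls of Mx1, Ifi35 and Trim30a in CD11b+ cells were lost when transcript lengths were allowed for (adjusted p = 0.241, 0.118 and 0.055 with edgeR and a length offset), and those of Mx1 and Ifi35 in CD11b+CD11c+ cells likewise (0.386 and 0.365). The same offset also ended calls of higher genes. These were Ifit2 and Eif2ak2 in CD11b+ cells (adjusted p = 0.211 and 0.0784). In CD11b+CD11c+ cells they were Oas3, Mx2 and Xaf1 (adjusted p = 0.392, 0.0629 and 0.0615). Leaving out single libraries ended the calls of Ifi35 in CD11b+CD11c+ cells (adjusted p = 0.0556 without CD11b+CD11c+ library 1, 0.18 without CD11b+CD11c+ library 2, 0.0726 without CD11b+ library 2 and 0.0806 without CD11c+ library 1) and in CD11b+ cells (adjusted p = 0.0902 without CD11b+ library 1 and 0.0504 without CD11c+ library 1) and of Trim30a in CD11b+ cells (adjusted p = 0.118 without CD11b+ library 1, 0.0997 without CD11b+ library 2 and 0.0982 without CD11c+ library 1).

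All 4 IFITM genes were higher in CD11b+CD11c+ cells and 3 of them in CD11b+ cells. Ifitm3 had 271 and 214 CPM in CD11b+CD11c+ libraries and 269 and 238 CPM in CD11b+ libraries, against 104 and 109 CPM in CD11c+ libraries. Over CD11c+ cells, Ifitm3 had a log2 fold change of 1.19 ± 0.14 in CD11b+CD11c+ cells (adjusted p = 0.00166) and of 1.25 ± 0.14 in CD11b+ cells (adjusted p = 0.00113). Ifitm1 had 51.3 and 37.6 CPM in CD11b+CD11c+ libraries and 69.6 and 56.9 CPM in CD11b+ libraries, against 28.9 and 24.7 CPM in CD11c+ libraries. Over CD11c+ cells, Ifitm1 had a log2 fold change of 0.73 ± 0.19 in CD11b+CD11c+ cells (adjusted p = 0.0226) and of 1.23 ± 0.19 in CD11b+ cells (adjusted p = 0.00309). The CD11c+ libraries were below all others for both. Ifitm2, the most abundant of the 48 genes in these subsets, had 499.9 and 470.5 CPM in CD11b+CD11c+ libraries and 381 and 363 CPM in CD11b+ libraries, against 356 and 407 CPM in CD11c+ libraries. Over CD11c+ cells, Ifitm2 had a log2 fold change of 0.35 ± 0.10 in CD11b+CD11c+ cells (adjusted p = 0.0359) and of -0.04 ± 0.10 in CD11b+ cells (adjusted p = 0.776). Ifitm6 had 24.9 and 16.02 CPM in CD11b+CD11c+ libraries and 21.8 and 19.8 CPM in CD11b+ libraries, against 11.8 and 12.7 CPM in CD11c+ libraries. Over CD11c+ cells, Ifitm6 had a log2 fold change of 0.75 ± 0.21 in CD11b+CD11c+ cells (adjusted p = 0.0328) and of 0.77 ± 0.21 in CD11b+ cells (adjusted p = 0.02496). Several of these calls were lost when single libraries were left out: in CD11b+CD11c+ cells those of Ifitm2 (adjusted p = 0.14 without CD11b+CD11c+ library 1, 0.062 without CD11b+CD11c+ library 2, 0.0765 without CD11b+ library 1 and 0.134 without CD11c+ library 1), Ifitm1 (adjusted p = 0.0984 without CD11b+CD11c+ library 1 and 0.0675 without CD11c+ library 2) and Ifitm6 (adjusted p = 0.113 without CD11b+CD11c+ library 1, 0.0649 without CD11b+ library 1, 0.0519 without CD11b+ library 2, 0.104 without CD11c+ library 1 and 0.0623 without CD11c+ library 2), and in CD11b+ cells that of Ifitm6 (adjusted p = 0.118 without CD11b+ library 1, 0.0809 without CD11b+ library 2, 0.0843 without CD11c+ library 1 and 0.0502 without CD11c+ library 2).

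Irgm1 and Iigp1, 2 of the 7 immunity-related GTPase genes (28.6%), were higher in each comparison. Of all genes, 20.4% were higher in CD11b+CD11c+ cells and 27.0% in CD11b+ cells. None of the 7 was lower by the edgeR test or at an unadjusted p under 0.05, where 22.5% and 25.0% of all genes were lower by that test. The medians were -0.15 and -0.12. Irgm1 had 24.2 and 26.4 CPM in CD11b+CD11c+ libraries and 29.8 and 22.9 CPM in CD11b+ libraries, against 16.8 and 15.5 CPM in CD11c+ libraries (log2 fold change over CD11c+ 0.65 ± 0.15 in CD11b+CD11c+ cells, adjusted p = 0.0166, and 0.70 ± 0.15 in CD11b+ cells, adjusted p = 0.0102), and its calls were lost when single libraries were left out, in CD11b+CD11c+ cells (adjusted p = 0.073 without CD11b+CD11c+ library 2 and 0.054 without CD11c+ library 2) and in CD11b+ cells (adjusted p = 0.0588 without CD11b+ library 1). Iigp1 had 6.37 and 5.52 CPM in CD11b+CD11c+ libraries and 6.84 and 7.08 CPM in CD11b+ libraries, against 2.39 and 1.93 CPM in CD11c+ libraries (log2 fold change over CD11c+ 1.45 ± 0.22 in CD11b+CD11c+ cells, adjusted p = 0.00369, and 1.67 ± 0.21 in CD11b+ cells, adjusted p = 0.00177), and its groups did not overlap. The other genes turned on the CD11c+ pair. Ifi47 had 11.1 and 13.4 CPM in CD11b+CD11c+ libraries and 15.5 and 12.4 CPM in CD11b+ libraries, against 24.04 and 10.9 CPM in CD11c+ libraries (log2 fold change over CD11c+ -0.53 ± 0.36 in CD11b+CD11c+ cells, adjusted p = 0.277, and -0.34 ± 0.36 in CD11b+ cells, adjusted p = 0.458), Igtp had 12.1 and 14.5 CPM in CD11b+CD11c+ libraries and 15.4 and 10.6 CPM in CD11b+ libraries, against 23.1 and 12.1 CPM in CD11c+ libraries (log2 fold change over CD11c+ -0.42 ± 0.33 in CD11b+CD11c+ cells, adjusted p = 0.343, and -0.45 ± 0.33 in CD11b+ cells, adjusted p = 0.286) and Irgm2 had 7.53 and 7.93 CPM in CD11b+CD11c+ libraries and 7.77 and 7.25 CPM in CD11b+ libraries, against 11.6 and 6.94 CPM in CD11c+ libraries. Over CD11c+ cells, Irgm2 had a log2 fold change of -0.27 ± 0.26 in CD11b+CD11c+ cells (adjusted p = 0.432) and of -0.32 ± 0.26 in CD11b+ cells (adjusted p = 0.343). In each, CD11c+ library 1 was the highest of the 6 and library 2 lay within or just below the range of the other 4. Without library 2, the 3 genes passed as lower, Ifi47 at -0.99 in CD11b+CD11c+ cells and -0.79 in CD11b+ cells (adjusted p = 0.0113 and 0.0201), Igtp at -0.81 and -0.85 (0.0419 and 0.031) and Irgm2 at -0.59 and -0.64 (0.0496 and 0.0337). The count of lower genes in the whole set then became 7 and 9. CD11c+ library 1 also had 13.8 CPM of Ifng, the interferon gamma gene, and library 2 had 8.93 CPM, and library 1 had the higher sums of NK and T cell markers, and the part of these in the result was not tested. The annotation has the Igtp and Irgm2 genes overlapping on the same strand. Of the coding words, 14.67% of those in Igtp and 15.91% of those in Irgm2 also stand in the other gene. The division of such reads between the 2 genes is uncertain. Tgtp1 and Tgtp2 passed in neither comparison.

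The guanylate binding protein genes are again described by cluster. On chromosome 3 all 4 were higher in each comparison, with medians of 1.54 and 1.23. Gbp3 had 89.2 and 100 CPM in CD11b+CD11c+ libraries and 82.1 and 87.8 CPM in CD11b+ libraries, against 32.8 and 37.8 CPM in CD11c+ libraries. Over CD11c+ cells, Gbp3 had a log2 fold change of 1.42 ± 0.11 in CD11b+CD11c+ cells (adjusted p = 0.000661) and of 1.27 ± 0.11 in CD11b+ cells (adjusted p = 0.000604). Gbp2 had 88.8 and 93.1 CPM in CD11b+CD11c+ libraries and 92.1 and 64.2 CPM in CD11b+ libraries, against 23.5 and 30.2 CPM in CD11c+ libraries. Over CD11c+ cells, Gbp2 had a log2 fold change of 1.76 ± 0.20 in CD11b+CD11c+ cells (adjusted p = 0.00158) and of 1.54 ± 0.20 in CD11b+ cells (adjusted p = 0.00187). Gbp7 had 38.3 and 45.3 CPM in CD11b+CD11c+ libraries and 32.5 and 28.6 CPM in CD11b+ libraries, against 15.6 and 10.9 CPM in CD11c+ libraries. Over CD11c+ cells, Gbp7 had a log2 fold change of 1.65 ± 0.19 in CD11b+CD11c+ cells (adjusted p = 0.00169) and of 1.19 ± 0.19 in CD11b+ cells (adjusted p = 0.00387). Neither CD11c+ library reached the lowest of the other 4 libraries for these genes, nor for Gbp5, at 1.17 and 0.83. On chromosome 5 none was higher, and the medians were 0.08 and -0.09. Gbp4 was lower in CD11b+ cells, with 27.9 and 43.2 CPM in CD11b+CD11c+ libraries and 26.8 and 27.9 CPM in CD11b+ libraries, against 60.9 and 44.5 CPM in CD11c+ libraries (log2 fold change over CD11c+ -0.57 ± 0.24 in CD11b+CD11c+ cells, adjusted p = 0.0941, and -0.95 ± 0.24 in CD11b+ cells, adjusted p = 0.0174), and that call was lost when single libraries were left out (adjusted p = 0.0916 without CD11b+ library 1, 0.0818 without CD11b+ library 2 and 0.0584 without CD11c+ library 1). Gbp4 passed as lower in CD11b+CD11c+ cells without library 2 (-0.79, 0.0394). Gbp6 and Gbp9 passed as higher without library 1 (in CD11b+ cells 1.14 and 0.77, adjusted p = 0.0187 and 0.00729, and in CD11b+CD11c+ cells with adjusted p = 0.0241 and 0.0109), while Gbp8 passed as lower in CD11b+ cells without library 2 (-0.90, 0.0206).

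Between CD11b+CD11c+ and CD11b+ cells few of the genes passed: 1 of 47 was higher, where 3.79% of all genes were, and 2 were lower, where 5.84% of all genes were, and the median log2 fold change was -0.02. Samhd1 had 278 and 256 CPM in CD11b+CD11c+ libraries, against 506 and 467 CPM in CD11b+ libraries (log2 fold change -0.87 ± 0.11, adjusted p = 0.00757). Oas3 had 6.37 and 5.83 CPM in CD11b+CD11c+ libraries, against 13.1 and 12.2 CPM in CD11b+ libraries (log2 fold change -1.04 ± 0.16, adjusted p = 0.0146). Stat2 had 75.5 and 63.6 CPM in CD11b+CD11c+ libraries, against 47.7 and 50.3 CPM in CD11b+ libraries (log2 fold change 0.51 ± 0.11, adjusted p = 0.0394). The groups did not overlap in these 3 genes, but each call was lost when single libraries of the 2 subsets were left out. For Samhd1 the adjusted p was 0.0541 without CD11b+CD11c+ library 2, 0.082 without CD11b+ library 1 and 0.0529 without CD11b+ library 2. For Oas3 it was 0.0756 and 0.0862 without CD11b+CD11c+ libraries 1 and 2, and 0.124 and 0.093 without CD11b+ libraries 1 and 2. For Stat2 it was 0.163 without CD11b+CD11c+ library 1, and 0.262 and 0.1 without CD11b+ libraries 1 and 2. Ifitm2 passed as higher without CD11c+ library 1 (0.39, adjusted p = 0.0388) or 2 (0.39, 0.0402), and Oasl2 as lower without CD11c+ library 1 (-0.47, 0.0405). A p that misses the threshold does not show equal levels in the 44 other genes. Marker lists moved in this comparison as well. In CD11b+CD11c+ cells 6 of 8 type 1 dendritic cell markers were higher and none lower. Lower were 6 of 8 neutrophil, 6 of 10 stromal and endothelial, 4 of 5 eosinophil and 3 of 6 monocyte markers, with none higher. None of the 9 macrophage markers passed. The part of such cells in this comparison was not tested.

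The interferon genes themselves were scarce. Of 14 interferon alpha genes 8 had no count in any of the 10 libraries, and the highest total over all libraries was 13 counts. Ifnb1, the interferon beta gene, had 65 and 51 counts in colonic MHCII+ libraries, against 0 and 1 in splenic ones (adjusted p = 0.00105). No fold is given, since the splenic counts are under the floor of 3. It had 89 and 54 counts in CD11b+CD11c+ libraries and 59 and 66 in CD11b+ libraries, against 11 and 29 in CD11c+ libraries. Over CD11c+ cells, Ifnb1 had a log2 fold change of 2.34 ± 0.59 in CD11b+CD11c+ cells (adjusted p = 0.0219) and of 2.03 ± 0.59 in CD11b+ cells (adjusted p = 0.0301). So Ifnb1 was higher in the colon, where most of the 48 genes were lower. Ifng had 128 and 112 counts in colonic MHCII+ libraries, against 185 and 87 in splenic ones, and did not pass (log2 fold change 0.62 ± 0.40, adjusted p = 0.216). In the subsets it had 7 and 4 counts in CD11b+CD11c+ libraries and 11 and 3 in CD11b+ libraries, against 364 and 148 in CD11c+ libraries. Over CD11c+ cells, Ifng had a log2 fold change of -4.82 ± 0.58 in CD11b+CD11c+ cells (adjusted p = 0.00189) and of -4.58 ± 0.56 in CD11b+ cells (adjusted p = 0.00158).

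Of the 6 interferon receptor genes, 2 were higher in colonic than in splenic MHCII+ cells, a share near the 31.6% of all genes, and none was lower. Ifnar1 had 176 and 170.2 CPM in colonic MHCII+ libraries, against 116 and 113 CPM in splenic MHCII+ libraries (log2 fold change 0.60 ± 0.09, adjusted p = 0.00145), and Il10rb, a chain shared with the interferon lambda receptor, had a log2 fold change of 0.43 ± 0.11. Ifnar2 (-0.16 ± 0.09), Ifngr1 (0.19 ± 0.09), Ifngr2 (0.24 ± 0.12) and Ifnlr1 (-0.66 ± 0.25) did not pass. In the subsets the chains of a receptor differed in their calls. Ifnar2 had 117 and 128 CPM in CD11b+CD11c+ libraries and 132 and 139 CPM in CD11b+ libraries, against 63.2 and 72.8 CPM in CD11c+ libraries (log2 fold change over CD11c+ 0.85 ± 0.11 in CD11b+CD11c+ cells, adjusted p = 0.00209, and 1.00 ± 0.11 in CD11b+ cells, adjusted p = 0.00102), whereas Ifnar1 passed in neither. Ifngr1 had 513 and 434 CPM in CD11b+CD11c+ libraries and 402 and 435 CPM in CD11b+ libraries, against 1327 and 1013 CPM in CD11c+ libraries, and was lower in both. Over CD11c+ cells, Ifngr1 had a log2 fold change of -1.31 ± 0.16 in CD11b+CD11c+ cells (adjusted p = 0.00195) and of -1.48 ± 0.16 in CD11b+ cells (adjusted p = 0.00105). Ifngr2 was higher at 0.58 and 0.64, and Il10rb at 1.77 and 1.86. Ifnlr1 had under 2 CPM in every subset library.

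Of the 13 genes of interferon signalling described besides the 48, 6 were lower, where 28.7% of all genes were, and 3 higher, where 31.6% were, in colonic MHCII+ cells. Irf9, the DNA-binding partner of STAT2, had 50.1 and 48.95 CPM in colonic MHCII+ libraries, against 114 and 120.4 CPM in splenic MHCII+ libraries (log2 fold change -1.24 ± 0.09, adjusted p = 6.62e-05). Irf7, which amplifies the type I response, had 48.04 and 45.1 CPM in colonic MHCII+ libraries, against 139 and 159 CPM in splenic MHCII+ libraries (log2 fold change -1.68 ± 0.11, adjusted p = 3.90e-05). These were lower in the colon, like Stat2 and Usp18. Irf1, a transcription factor induced through the gamma-activated site, had 204 and 203 CPM in colonic MHCII+ libraries, against 173 and 198 CPM in splenic MHCII+ libraries and did not pass (log2 fold change 0.14 ± 0.10, adjusted p = 0.282). Among the colonic subsets these regulators did not all move one way. Irf9 passed in neither comparison (-0.15 ± 0.12 and -0.29 ± 0.12). Irf1 was higher, with 156 and 175 CPM in CD11b+CD11c+ libraries and 203 and 196 CPM in CD11b+ libraries, against 109 and 104 CPM in CD11c+ libraries. Over CD11c+ cells, Irf1 had a log2 fold change of 0.63 ± 0.09 in CD11b+CD11c+ cells (adjusted p = 0.00369) and of 0.90 ± 0.09 in CD11b+ cells (adjusted p = 0.0009395). Irf7 had 27.4 and 26.5 CPM in CD11b+CD11c+ libraries and 46.1 and 49.97 CPM in CD11b+ libraries, against 38.8 and 33.1 CPM in CD11c+ libraries, lower in CD11b+CD11c+ cells and higher in CD11b+ cells. Over CD11c+ cells, Irf7 had a log2 fold change of -0.42 ± 0.11 in CD11b+CD11c+ cells (adjusted p = 0.0279) and of 0.42 ± 0.11 in CD11b+ cells (adjusted p = 0.0223). Between these 2 subsets it was lower in CD11b+CD11c+ cells (log2 fold change -0.83 ± 0.11, adjusted p = 0.00922). Over the list, 5 were higher and 2 lower in CD11b+CD11c+ cells, where 20.4% and 22.5% of all genes were, and 6 higher and 3 lower in CD11b+ cells, where 27.0% and 25.0% were. In this list of 13, the shares of higher genes were above those of all genes. The share of lower genes was under that of all genes in CD11b+CD11c+ cells and near it in CD11b+ cells.

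**Figure D5:**
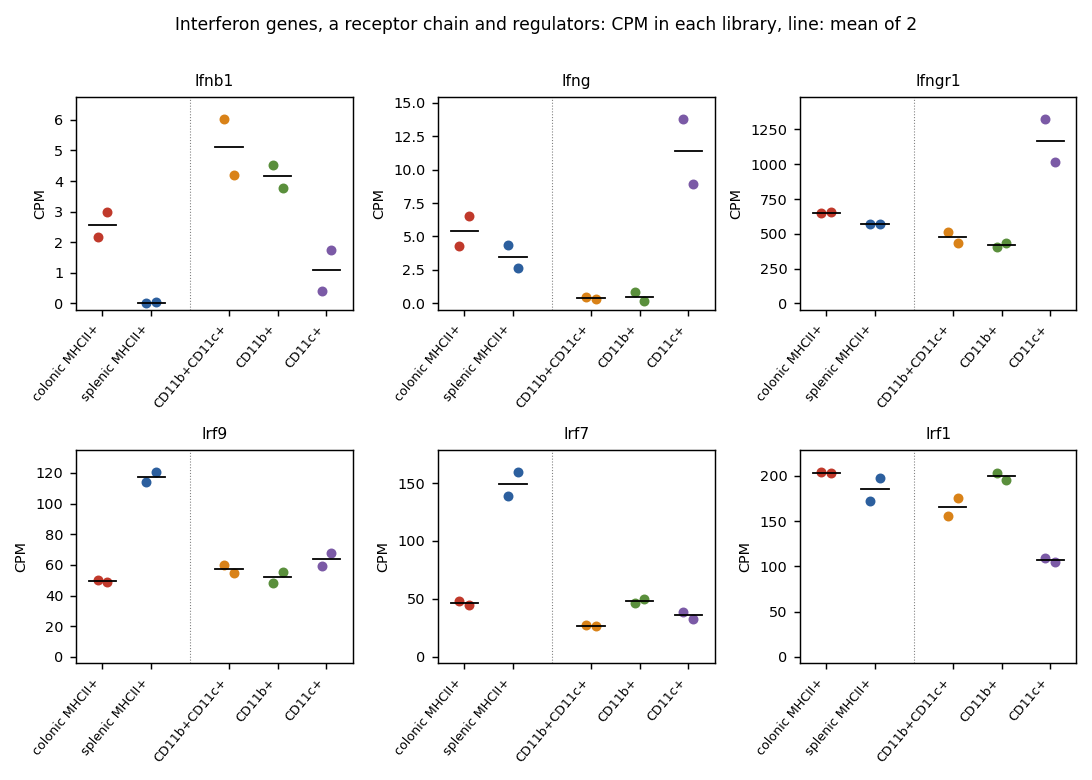
CPM of 2 interferon genes, the receptor gene Ifngr1 and 3 regulators of the response in each library (points), with the mean of 2 libraries per group as a line. MHCII+ and subset libraries, left and right of the dotted line, were scaled separately. Irf9 and Irf7 are lower in colonic than in splenic MHCII+ libraries while Ifnb1 is higher, and Ifng and Ifngr1 are highest in the CD11c+ libraries.

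A further 47 interferon-responsive genes were listed for comparison, 45 of them were in the files, and 43 were tested in the MHCII+ set. In colonic MHCII+ cells 32 were lower, where 28.7% of all genes were, and 3 higher, where 31.6% were, with a median log2 fold change of -1.29. The 3 higher genes were Ifi207 (0.47), Cxcl10 (3.08), a chemokine that draws T cells, and Gbp2b (3.13), a chromosome 3 neighbour of Gbp2. Among the lower were Trim34a (-3.06), Ifit3b (-3.57) and the immunoproteasome and peptide transport genes Psmb8 (-0.90), Psmb9 (-1.20) and Tap1 (-0.79). In the subsets these genes fell on both sides. Of 41 tested, 16 were higher and 12 lower in each comparison, where 20.4% and 22.5% of all genes were in CD11b+CD11c+ cells and 27.0% and 25.0% in CD11b+ cells, with medians of 0.06 in CD11b+CD11c+ cells and 0.16 in CD11b+ cells. Rtp4 (2.88 and 2.98), Cxcl10 (2.05 and 1.99) and Gbp2b (2.74 and 2.32) were higher, and Psmb9 (-1.70 and -2.39), Psmb8 (-0.99 and -1.60) and Tap1 (-1.24 and -1.85) were lower. Of 12 genes that relay nucleic acid sensing, 5 were higher and 7 lower in colonic MHCII+ cells, 9 higher and 1 lower in CD11b+CD11c+ cells, and 6 higher and 2 lower in CD11b+ cells, beside the same shares of all genes. The genes named from these lists are a selection, not all of it by size, and do not stand for the lists. The list medians stand beside all-gene medians of 0.02, -0.09 and -0.02.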

How the data were processed

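RNA-seq libraries had been made with poly(A) selection and a directional kit, per the labels' protocols, and quantified by the authors with kallisto 0.44.0 on mm10 with sleuth named beside it, per the submitters' processing notes. The deposited tables give estimated counts and TPM for 66760 transcripts per library. Transcripts were assigned to genes by identifier with GENCODE M21 (65747 matched), and both units were summed per gene into 22607 genes. The lengths listed are those of coding sequences. Each library held 12806139 to 41769042 counts.

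The members and gene lists were chosen with earlier results of these data known. One further gene of the signalling list is not reported here. Genes were kept by filterByExpr, estimated counts were rounded, and edgeR 4.0.16 (R 4.3.3) was run with TMM scaling and its quasi-likelihood F test, separately for the 4 MHCII+ and the 6 subset libraries, with Benjamini-Hochberg adjustment over all genes and a threshold of 0.05. Fold changes carry their standard error. In simulated counts for the MHCII+ set, few genes were changed and all had the same spread. There 53% of 2-fold and 97% of 4-fold changes were called. Far more genes passed in the data, so these shares do not carry over to it. Full values are printed for the 2 most abundant and the 2 most changed called genes of each role, for genes moving against their role, and for genes whose libraries of a group differ by over 2-fold. Replicates of a group were distinct libraries, with correlations of log2 CPM of 0.968 to 0.986. Alternatives were DESeq2 1.42.0 size factors and Wald test, no count filter, a length offset, limma 3.58.1 on log2(TPM + 1), other sets of libraries in the fit, a replicate block, each library left out and, chosen after seeing the data, near-identical genes summed.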

Additional observations from a re-analysis of the deposited data

How the results depend on the processing

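No member changed direction with its call under any setting run, and the median of all genes in colonic over splenic cells was -0.12 with limma on log2(TPM + 1) and 0.11 with no count filter, beside 0.02. With limma on log2(TPM + 1), 2 members were higher in colonic MHCII+ cells, 2 lower in CD11b+ than CD11c+ cells, 1 lower in CD11b+CD11c+ than CD11c+ cells, and 0 higher and 1 lower in CD11b+CD11c+ than CD11b+ cells. With the length offset the last 4 counts were 2, 1, 0 and 1. In CD11b+CD11c+ over CD11b+ cells, 2 were higher with DESeq2's Wald test, with no count filter and with only the 4 libraries compared, and 1 was lower with all 10 libraries in the fit. The cause of these changes was not tested. Leaving out 1 library each gave 2 to 9 lower members for CD11b+ over CD11c+ cells, 2 to 7 for CD11b+CD11c+ over CD11c+ cells, and 0 to 2 higher and 0 to 3 lower for CD11b+CD11c+ over CD11b+ cells. Under every setting run, 35 of the 37 lower and 2 of the 5 higher calls of the colon against the spleen held, 23 of 30 higher and 1 of 5 lower in CD11b+ over CD11c+ cells, 19 of 28 and 1 of 3 in CD11b+CD11c+ over CD11c+ cells, and none of 3 between the CD11b-bearing subsets. Whether the replicate numbers of the subsets pair the libraries could not be settled with 2 libraries per group. Correlations between subsets of the deviation of replicate 1 from its group mean differed by pair. They were -0.0117 for CD11b+ with CD11b+CD11c+ cells, -0.0642 for CD11b+ with CD11c+ cells and 0.258 for CD11b+CD11c+ with CD11c+ cells. With the replicate block the counts of higher and lower members were 29 and 5, 29 and 3, and 0 and 3 in the order CD11b+ over CD11c+, CD11b+CD11c+ over CD11c+ and CD11b+CD11c+ over CD11b+. For colonic against splenic MHCII+ cells alone, no paired analysis was possible because both splenic titles carry the same number. Groups of 2 libraries limit all of these, as do low counts for genes such as Ifi44, Iigp1 and Ifnb1.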
